A study of Mus musculus with 3 samples.

Results

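Macrophage and myeloid cell genes were described here in mouse tail-tip fibroblasts undergoing reprogramming. The set holds 37 genes of the 20882 genes that the array names, and its members were listed by name with the ratios of these arrays already known. Their levels and ratios are therefore given as a description and carry no test. The cultures came from old p16-/- mice aged 22 months, old wild-type (WT) mice aged 22 months and young WT mice aged 2 months. Every culture had received Oct4, Sox2, Klf4 and c-Myc and was collected on day 8, so the controls carried the 4 factors as well, and no culture without them was analysed here. The comparisons address how reprogramming intermediates of aged cells differ from those of young cells, and how aged cells that lack p16 differ from aged cells that have it. Each group is 1 one-colour Agilent array of bulk RNA, so no difference has a replicate check. The strain, the number of donors pooled on an array and the way the factors were delivered are not given in the sources used here.

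Macrophages are phagocytes of the haematopoietic lineage that live in the dermis and other tissues, clear dead cells and sense microbes. Their identity rests on the transcription factor PU.1, encoded by Spi1, and their survival on the receptor Csf1r, which binds the growth factors Csf1 and Il34. They carry Fc receptors and paired immune receptors that signal through the adaptors Fcer1g and Tyrobp, and they make lysozyme, complement C1q and lysosomal proteases. Fibroblasts of skin explants secrete Csf1, and resident macrophages are a known component of early explant cultures.

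The 3 arrays were alike in overall signal. Of 43020 spots, the scanner software called 58.4% above background for old p16-/-, 61.6% for old WT and 57.4% for young WT. Values are processed signal in linear intensity units, and ratios are log2 ratios after each array's 75th percentile was subtracted. A ratio with only 1 of its arrays above background is a bound, computed against the lowest level called above background, and it is written as "at least". Lower and higher mean at least 2-fold apart. Cdkn2a, which encodes p16 and the tumour suppressor Arf, had a signal of 28065 on old p16-/-, 65464 on old WT and 62705 on young WT, and no source says whether its probes lie in the deleted segment. The Y-linked gene Ddx3y had 12.05, 8.99 and 3949 on the same arrays, and Xist had 1387, 1548 and 13.8. Donor age and these sex-linked genes differ together between the old arrays and the young one, and age and sex cannot be told apart in any comparison with young WT.

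The label was checked against defining markers. All 16 fibroblast genes of a marker list were above background on every array, and Col1a1, a chain of type I collagen, had 130176 on old p16-/-, 159574 on old WT and 171773 on young WT. The list was not steady between the old arrays, where Thy1, a fibroblast surface marker, had 3287 on old p16-/- and 52045 on old WT, while Pdgfra and Fap were 3.03-fold and 2.84-fold higher on old p16-/-. Macrophage markers were also present on both WT arrays, among them Adgre1, which encodes F4/80, Csf1r, Lyz2 and the 3 C1q chains. Several defining leukocyte genes were not called above background there. By the looser call given below, 35 of 37 members passed on old WT and 36 on young WT. Ptprc, which encodes the pan-leukocyte phosphatase CD45, was not above background on old WT (35.9) or young WT (50.2). Spi1, with signals of 10.1, 7.64 and 11.99 on old p16-/-, old WT and young WT, Cybb, Cx3cr1 and Cd53 were above background on no array. The name of the set thus fits most of its members but not all. A probe that stays dim shows only that its own signal was not called above background.

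Most members followed 1 order of the arrays. Among the 33 members above background somewhere, 26 were lowest on old p16-/-, intermediate on old WT and highest on young WT, an order shown by 17% of all 15001 genes above background on any array. Above background were 15 of 37 members (40.5%) on old p16-/-, 30 (81.1%) on old WT and 32 (86.5%) on young WT, against 65.9%, 68.5% and 64.8% of all genes. By the scanner software's looser call of a positive and significant signal, 26 of 37 members were above background on old p16-/-, 35 on old WT and 36 on young WT. The shares of all genes were 76.7%, 79.8% and 75.8%. The gap between members and all genes on old p16-/- was thus smaller by this call than by the stricter one. Exactly 17 members were above background on both WT arrays and not on old p16-/-, a pattern held by 1.63% of all genes. By the looser call 10 members held it, against 2.35%. Another 13 were above background on all 3 arrays, Fcgr3 on young WT alone, Ms4a6b on old p16-/- and young WT, and Ptprc on old p16-/- alone. Of the 30 members above background on old WT, 17 were not on old p16-/-, against 6.98% of 14304 genes. Of the 32 above background on young WT, 18 were not on old p16-/- and 2 were not on old WT, against 4.37% and 2.17% of 13533 genes. In bulk RNA, fewer macrophages in a culture and less of these transcripts per macrophage cannot be told apart.

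**Figure D1:**
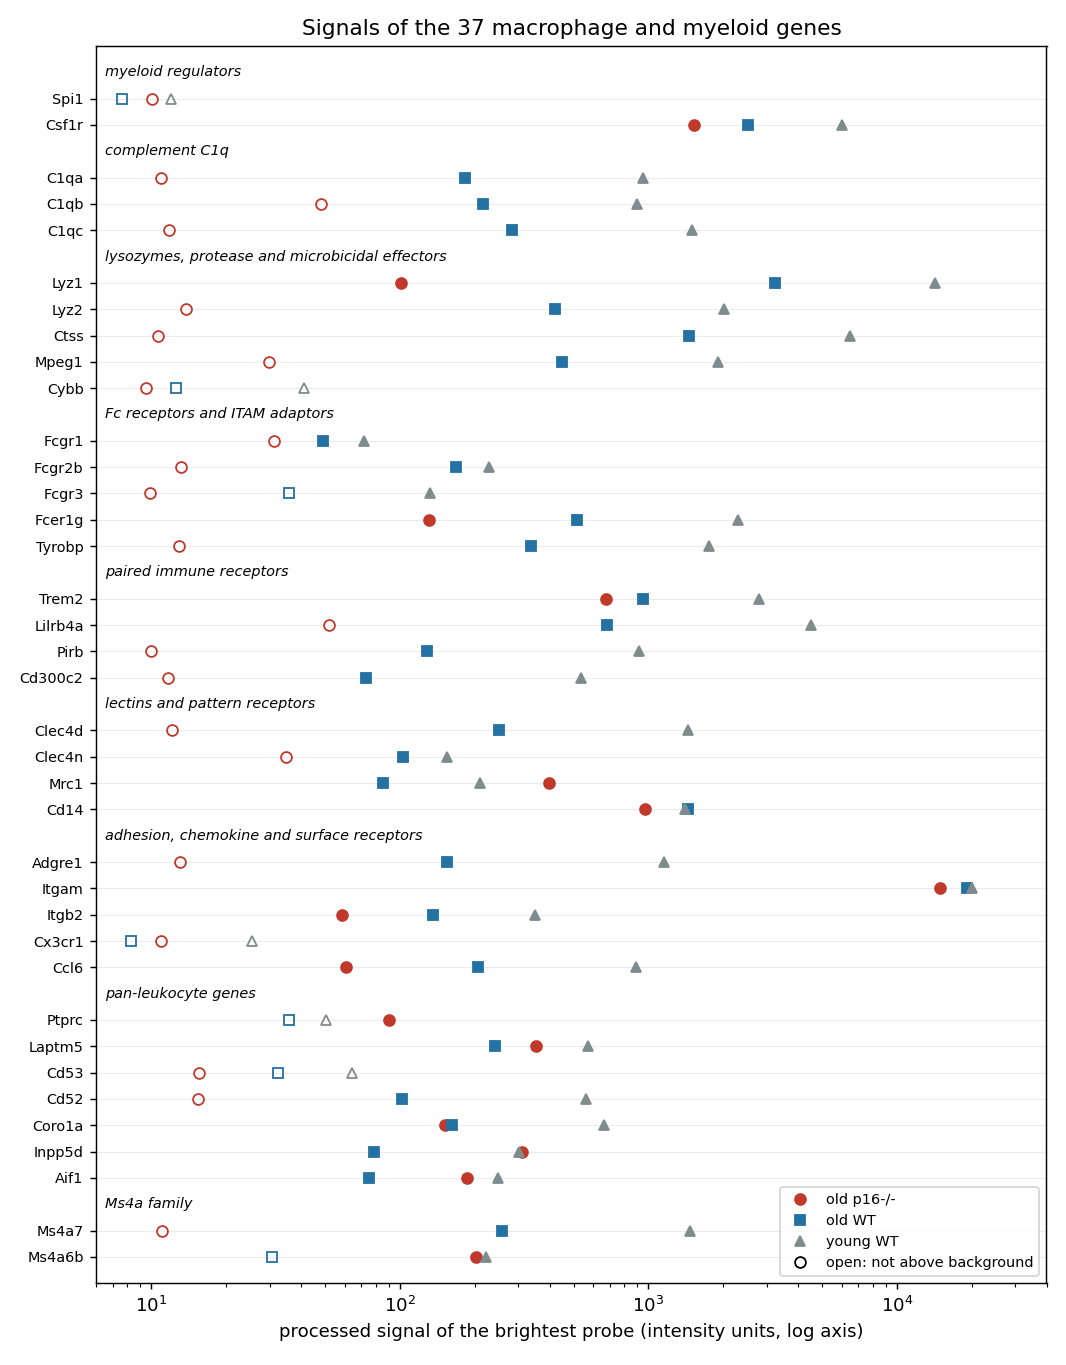
Processed signal (linear intensity units, log axis) of the 37 members on the old p16-/-, old WT and young WT arrays, with members grouped by role. Filled points were called above background and open points were not; 17 members are filled on both WT arrays and open on old p16-/-.

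In old WT over young WT, 27 of the 32 members counted were lower and 0 were higher, against 3.33% of 14598 genes lower and 3.08% higher. The median log2 ratio of the members was -2.04, and that of all genes was -0.00. Where the brighter array had a signal of at least 1000, 13 of 15 members were lower and 0 higher, against 0.585% and 1.18% of 8720 genes. Most of these 15 passed the limit only through young WT, so the filter favours lower ratios. The 30 members above background on both WT arrays ranged from -2.83 to 0.09, with 17 of them between -3 and -2, 8 between -2 and -1 and 4 between -1 and 0. Cd14 alone lay above 0. The members nearest the 2-fold limit were Csf1r and Laptm5 inside it, both at -1.19, and Clec4n at -0.52 and Fcgr1 at -0.48 outside it.

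In old p16-/- over old WT, 19 of the 32 members counted were lower and 5 were higher, against 6.72% of 14751 genes lower and 6.09% higher. The members' median was -1.33 and the median of all genes was 0.02. This comparison was less uniform than a median shows, since 5 members were higher. In it, 19 of the ratios are bounds. The 13 members above background on both old arrays ranged from -5.00 to 2.22 with a median of -0.49. Inside the limit, the nearest members were Cd52 at -1.12 and Clec4n at -1.14, and outside it Csf1r at -0.74 and Cd300c2 at -0.64. Both ratios use the old WT array, so a low or high spot there moves them in opposite directions.

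In old p16-/- over young WT, 24 of the 33 members counted were lower and 0 were higher, against 7.11% of 14344 genes lower and 6.54% higher. The members' median was -3.45, with 19 bounds. The 14 members above background on both of these arrays had a median of -1.28. Of them, 7 were lower and 0 higher, against 5.05% and 4.39% of 12942 genes. The median was -2.34 with normexp background correction and -2.52 with the deposited value table or with the median over a gene's probes. With 1000 or more on the brighter array, 13 of 15 were lower and 0 higher, against 4.21% and 3.43% of 8874 genes. Of the 15 members with a signal of at least 1000 on young WT, 9 were not above background on old p16-/-, whereas 19 of 8585 genes of that brightness (0.221%) were not. Those 9 were C1qc, Lyz2, Ctss, Mpeg1, Tyrobp, Lilrb4a, Clec4d, Adgre1 and Ms4a7. None of the 15 was below background on old WT. Both sets of 15 passed the limit of 1000 mostly through young WT alone, where most members were highest. The 19 genes also include these 9 members, so the contrast is a description only.

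**Figure D2:**
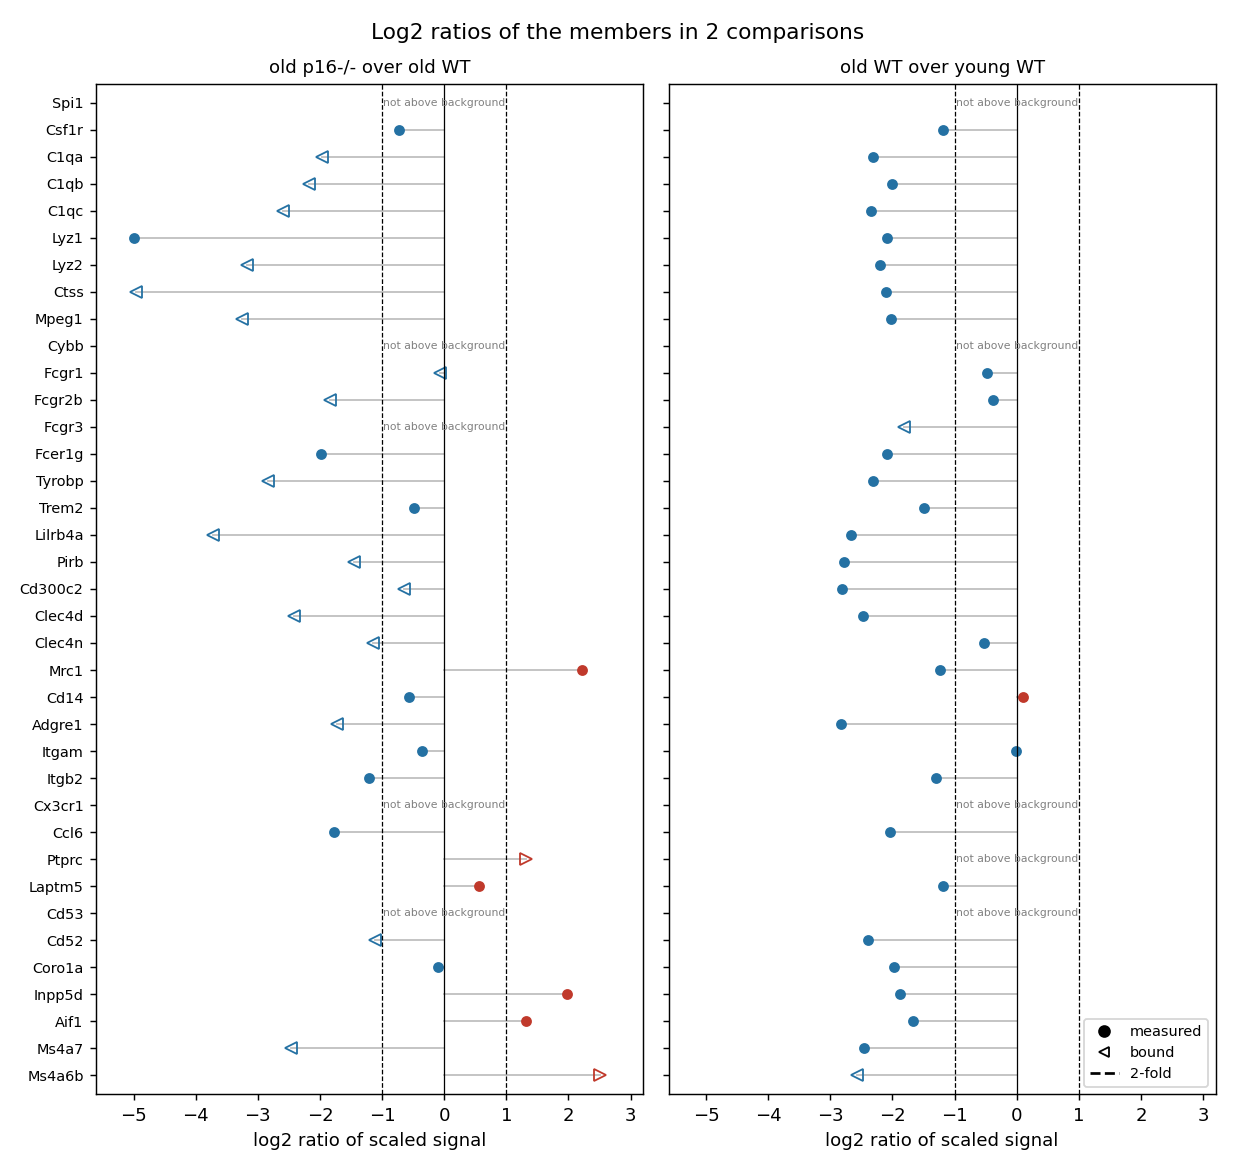
Log2 ratios of each member for old p16-/- over old WT and for old WT over young WT, with measured ratios as filled circles, bounds as open triangles that point away from 0, and dashed lines at the 2-fold limits. In old WT over young WT 27 members lie below the lower limit, and in old p16-/- over old WT 5 lie above the upper one.

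The C1q chains assemble into the recognition subunit of the classical complement pathway, and in mice macrophages are a main source of them. C1qa had a signal of 10.9 on old p16-/-, which was not above background, 183 on old WT and 947 on young WT. C1qb had 48.0, not above background, 216 and 903 on the same 3 arrays. C1qc had 11.8, not above background, 282 and 1501. The 3 chains thus kept the same order of the arrays. Their log2 ratios in old WT over young WT were -2.31, -2.01 and -2.35, which are 4.96-fold, 4.02-fold and 5.10-fold. In old p16-/- over old WT, C1qa was at least 3.90-fold lower, C1qb at least 4.50-fold and C1qc at least 6.02-fold. The genes C1qb, C1qc and C1qa follow each other on chromosome 4 with no protein-coding gene between them.

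The probe of C1qc was spotted 10 times and gives the only spread available for a C1q chain. On old p16-/- the 9 spots used had a mean of 12.1 ± 3.53 (SD over spots), on old WT the 8 spots used had 283 ± 16.1, and on young WT the 10 spots had 1502 ± 48.4. The spots of the arrays did not overlap, and the ratio of old WT over young WT had an SD over spots of 0.0946 on the log2 scale. One C1qc spot on old p16-/- was left out as marked by the scanner software, and it read 318 and was called above background. Fcgr2b was the other member spotted 10 times, with 13.5 ± 3.30 over 8 spots on old p16-/-, 169 ± 13.6 over 10 spots on old WT and 229 ± 13.6 over 10 spots on young WT. It too had a bright spot left out on old p16-/-, at 677. Spots of 1 array measure hybridisation and not the spread between cultures.

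**Figure D3:**
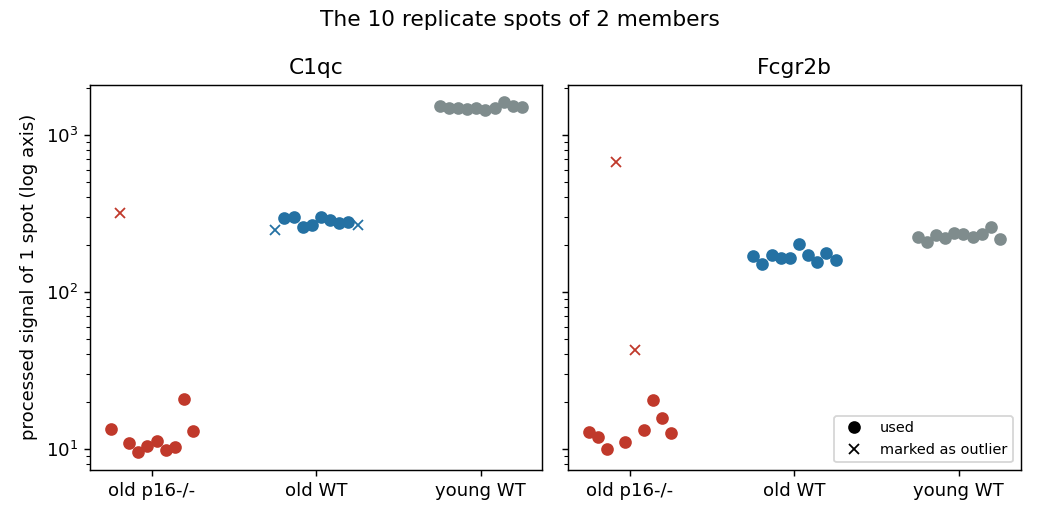
Processed signal (linear intensity units, log axis) of each replicate spot of C1qc and Fcgr2b on the old p16-/-, old WT and young WT arrays, with spots marked as outliers and left out drawn as crosses. The used C1qc spots lie between 9.51 and 20.9 on old p16-/-, between 259 and 301 on old WT and between 1448 and 1613 on young WT.

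Promoter sequence was read for every member with an entry, whatever its pattern across the arrays. RefSeq promoters of the GRCm38.p6 build, 250 bases before to 50 bases after each start, were matched for 27 of 37 members (31 promoters). Spi1, Csf1r, Adgre1, Cd14, Cd52, Tyrobp, Itgb2, Clec4n, C1qa and Lilrb4a are named only. PU.1 binds purine-rich sites with a GAGGAA or closely related core. The letters GAGGAA, read on both strands (TTCCTC on the reverse), were found in 19 of 31 member promoters (61.3%). Among all promoters of the same length, 9289 of 32851 (28.3%) had them. By gene, 18 of 27 members had a match, since the overlapping windows of Fcgr3 hold the same site. A second motif, TTGCNNAA on both strands, which C/EBP factors bind, was in 4 member promoters (12.9%) against 10.8% of all, and TATAAA was in 3 (9.68%) against 13.6%. A match is a description of letters and not of binding. A match was not particular to a pattern across the arrays. Mrc1, Inpp5d, Aif1 and Ptprc, each higher in old p16-/- over old WT, had a match, and Ms4a6b, also higher, had none. Lyz2, Mpeg1 and Fcgr2b, above background on both WT arrays and not on old p16-/-, had none. The 250 bases before the start follow for 4 members with a match and that same pattern. Each is written on the strand of the gene with the match in capitals, GAGGAA in C1qb and Ctss and TTCCTC in C1qc and Clec4d. C1qb lies at chr4:136886201-136886450 on the minus strand, with the match 30 bases before the start. C1qc lies at chr4:136892915-136893164 on the minus strand, 193 bases before the start. Ctss lies at chr3:95526536-95526785 on the plus strand, 164 bases before the start. Clec4d lies at chr6:123261857-123262106 on the plus strand, 240 bases before the start.
C1qb: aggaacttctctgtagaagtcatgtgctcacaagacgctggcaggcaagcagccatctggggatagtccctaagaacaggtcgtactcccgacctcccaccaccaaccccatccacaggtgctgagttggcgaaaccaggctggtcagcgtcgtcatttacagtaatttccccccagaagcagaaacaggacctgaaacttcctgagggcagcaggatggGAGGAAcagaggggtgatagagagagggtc
C1qc: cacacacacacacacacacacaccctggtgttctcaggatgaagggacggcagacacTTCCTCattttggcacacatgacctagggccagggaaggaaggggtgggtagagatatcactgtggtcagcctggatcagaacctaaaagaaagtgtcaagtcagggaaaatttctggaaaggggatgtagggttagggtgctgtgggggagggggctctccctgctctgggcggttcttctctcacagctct
Ctss: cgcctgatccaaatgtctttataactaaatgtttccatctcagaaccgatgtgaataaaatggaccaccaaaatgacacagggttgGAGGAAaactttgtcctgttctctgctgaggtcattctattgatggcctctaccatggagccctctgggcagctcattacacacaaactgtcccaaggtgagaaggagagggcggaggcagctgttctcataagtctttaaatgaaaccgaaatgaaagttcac
Clec4d: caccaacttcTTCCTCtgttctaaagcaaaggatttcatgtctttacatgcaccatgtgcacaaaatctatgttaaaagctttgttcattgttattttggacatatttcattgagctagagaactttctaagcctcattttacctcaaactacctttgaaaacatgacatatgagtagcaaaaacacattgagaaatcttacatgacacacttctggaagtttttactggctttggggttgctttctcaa

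Lysozyme, cathepsin S and perforin-2 are the degradative products of the phagosome. Lyz1 had a signal of 100.9 on old p16-/-, 3222 on old WT and 14297 on young WT, each above background. It was 32.0-fold lower in old p16-/- over old WT and 4.26-fold lower in old WT over young WT, and 136-fold lower in old p16-/- over young WT. Lyz2, the lysozyme gene of macrophages, had 13.8, not above background, 422 and 2017 on the 3 arrays. The pair therefore ran in parallel, with log2 ratios of -2.09 for Lyz1 and -2.20 for Lyz2 in old WT over young WT. Ctss, the protease that trims the invariant chain of MHC class II, had 10.6, not above background, 1455 and 6500.0. Ctss was at least 31.0-fold lower in old p16-/- over old WT and at least 133-fold lower in old p16-/- over young WT. Mpeg1, which encodes the pore-forming perforin-2, had 29.7, not above background, 448 and 1903. A second Mpeg1 probe was above background on no array. Cybb, the membrane subunit of the phagocyte oxidase, was dim throughout at 9.54, 12.6 and 41.2.

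Lyz1 and Lyz2 are neighbours on chromosome 10 with no protein-coding gene between them, and genes this similar can share labelled RNA on an array, so their values are not independent. Their promoters are shown because the pair moved together. In a global alignment (match 1, mismatch -1, gap -2), 200 of 248 aligned bases (80.6%) were identical, and 2 bases of each promoter were unaligned. Of the 100 bases nearest the start, 92 were identical. Capitals mark bases that differ or are unaligned. The Lyz1 window lies at chr10:117292869-117293118 and the Lyz2 window at chr10:117282273-117282522, both on the minus strand of GRCm38.p6 and from RefSeq. No GAGGAA was found in either.
Lyz1: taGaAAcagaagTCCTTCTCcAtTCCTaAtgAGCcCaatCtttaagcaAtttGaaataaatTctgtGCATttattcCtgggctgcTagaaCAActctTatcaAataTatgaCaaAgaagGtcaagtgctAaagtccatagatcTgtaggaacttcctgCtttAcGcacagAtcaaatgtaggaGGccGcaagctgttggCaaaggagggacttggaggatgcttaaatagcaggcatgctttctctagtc
Lyz2: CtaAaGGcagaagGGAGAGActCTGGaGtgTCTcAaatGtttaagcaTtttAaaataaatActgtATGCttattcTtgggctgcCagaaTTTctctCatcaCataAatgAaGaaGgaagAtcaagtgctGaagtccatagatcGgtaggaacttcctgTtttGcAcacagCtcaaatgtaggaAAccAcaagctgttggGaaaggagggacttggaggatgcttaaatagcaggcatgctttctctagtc

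Fc receptors bind antibody-coated particles and signal through ITAM adaptors. The adaptor Fcer1g had 131 on old p16-/-, 515 on old WT and 2294 on young WT, all above background, with log2 ratios of -1.98 in old p16-/- over old WT and -2.10 in old WT over young WT. The adaptor Tyrobp, also called DAP12, had 12.9, not above background, 336 and 1747. Both adaptors were thus lowest on old p16-/- and highest on young WT. The receptors were less uniform than the adaptors. Fcgr2b, the inhibitory receptor, was at least 3.59-fold lower in old p16-/- over old WT while its log2 ratio of -0.38 in old WT over young WT was inside the 2-fold limit. Fcgr3, an activating receptor, had 9.88 on old p16-/- and 35.8 on old WT, neither above background, and 132 on young WT. Fcgr1, the high-affinity receptor, was dim at 31.1, not above background, 49.1 and 71.7. Fcgr2b and Fcgr3 lie on chromosome 1 with 1 protein-coding gene between them and have related extracellular domains.

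Of the 9 roles, the paired immune receptors had the lowest median ratio in old WT over young WT, at -2.72. Lilrb4a, an inhibitory receptor, had 52.0, not above background, on old p16-/-, 681 on old WT and 4493 on young WT. Pirb, an inhibitory receptor for MHC class I, had 9.92, not above background, 128 and 918. Cd300c2, of the CD300 receptor family, had 11.6, not above background, 73.2 and 534. These 3 genes had log2 ratios of -2.66, -2.78 and -2.81 in old WT over young WT. A second Lilrb4a probe gave -2.36. Trem2, a lipid-sensing receptor that pairs with Tyrobp, stood apart from its adaptor with 677 on old p16-/-, 952 on old WT and 2778 on young WT. Its log2 ratio was -0.49 in old p16-/- over old WT, inside the 2-fold limit, whereas Tyrobp was at least 7.17-fold lower. Lilrb4a, Pirb and Cd300c2 have close paralogs that an oligonucleotide probe may not separate.

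Among lectins and pattern receptors, Clec4d, a C-type lectin for fungal and mycobacterial glycolipids, had 12.1, not above background, on old p16-/-, 249.8 on old WT and 1444 on young WT. Its neighbour Clec4n, which encodes Dectin-2, had 34.7, not above background, 103 and 154. The 2 neighbours therefore differed in size, with -2.47 for Clec4d and -0.52 for Clec4n in old WT over young WT. Cd14, the co-receptor for lipopolysaccharide, had 971, 1438 and 1403, all above background and none 2-fold apart. Mrc1, which encodes the mannose receptor CD206, ran against the rest with 399 on old p16-/-, 85.3 on old WT and 210.3 on young WT. It was 4.67-fold higher in old p16-/- over old WT and 2.36-fold lower in old WT over young WT.

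Adgre1 had 13.1, not above background, on old p16-/-, 155 on old WT and 1153 on young WT, and at -2.83 it had the lowest ratio of any member in old WT over young WT. A second Adgre1 probe gave -2.50. The integrin chains differed between members. Itgb2, the shared beta chain CD18, had 58.7, 136 and 349.8, all above background, and was lower in each comparison. Itgam, which encodes its partner CD11b, had 14934, 19071 and 19992, with no ratio beyond -0.36. A second Itgam probe, with 55.7, 65.2 and 136, gave -0.996 in old WT over young WT, and the third was above background on no array, so the probes of Itgam disagreed. The chemokine Ccl6 had 60.5, 207 and 892, and its ratios of -1.78 in old p16-/- over old WT and -2.05 in old WT over young WT resembled those of Fcer1g. Cx3cr1, the fractalkine receptor, was dim on all 3 of its probes.

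The growth factor receptor Csf1r had 1519.6 on old p16-/-, 2526 on old WT and 5992 on young WT, all above background. Its log2 ratio of -0.74 in old p16-/- over old WT was inside the limit, and it was 2.28-fold lower in old WT over young WT. The third Csf1r probe gave -1.18 in old WT over young WT, close to the first, but a second probe gave -0.13. That second probe had 473, 394 and 450 and placed the arrays in another order, so Csf1r depends on the probe.

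**Figure D4:**
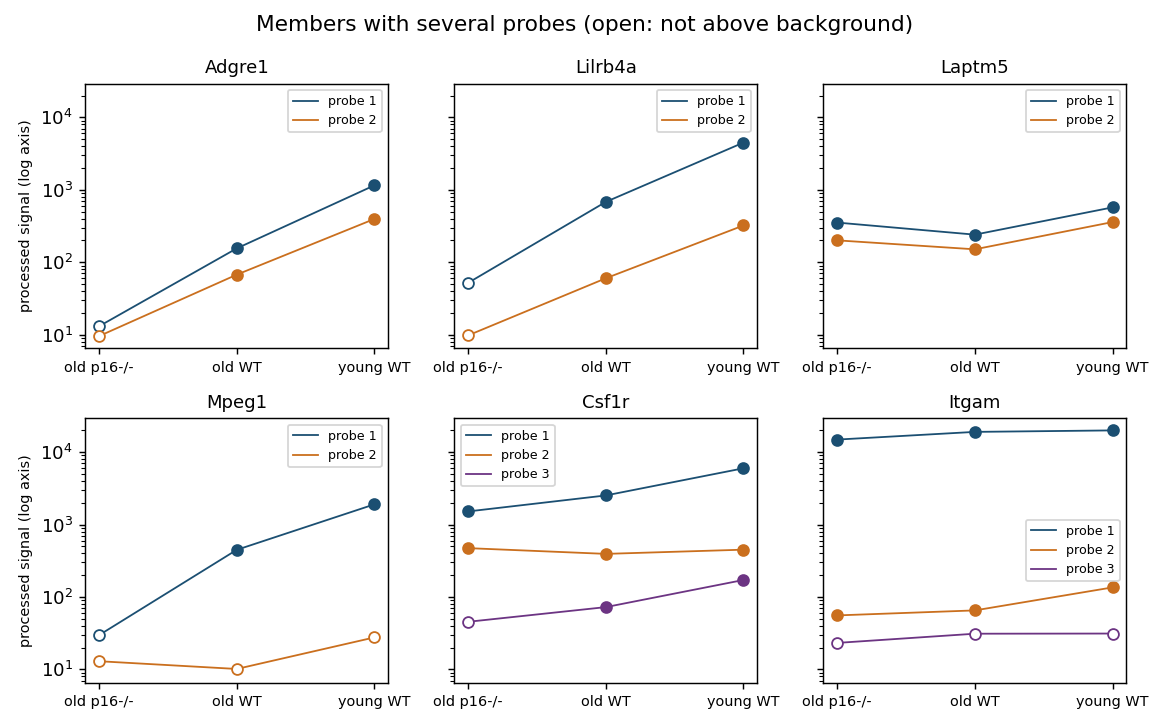
Processed signal (linear intensity units, log axis) on the old p16-/-, old WT and young WT arrays for every probe of 6 members with more than 1 probe, numbered by brightness, with open points where a probe was not above background. Lines join the 3 values of a probe; the second probes of Lilrb4a, Adgre1 and Laptm5 keep the order of the first probe, whereas that of Csf1r does not.

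Of the genes that many leukocytes share, 5 of 5 counted were lower in old WT over young WT, beside 3.33% of all genes. Between the old arrays they were split, with 3 of 6 higher and 1 lower, beside 6.09% and 6.72% of all genes. Mrc1 and Ms4a6b, of other roles, were also higher there. Cd52, a small surface glycoprotein, had 15.4, not above background, on old p16-/-, 101.9 on old WT and 559 on young WT. Coro1a, an actin regulator of leukocytes, had 151, 162 and 663, so it was 3.92-fold lower in old WT over young WT and nearly level between the old arrays, at -0.10. Laptm5, a lysosomal membrane protein, had 353, 240.4 and 572, and its second probe kept that order. Inpp5d, the lipid phosphatase SHIP1, had 310.1, 78.8 and 302, and Aif1, which encodes the cytoplasmic marker IBA1, had 186, 74.9 and 247. Both were lower in old WT over young WT, at -1.88 and -1.66, and higher in old p16-/- over old WT, at 1.97 and 1.31. Old p16-/- and young WT differed by less than 2-fold for both genes. Ptprc, with 89.9 on old p16-/-, was at least 2.50-fold higher than on old WT. Cd53, a tetraspanin, was dim at 15.5, 32.3 and 64.1.

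The Ms4a family of tetraspan membrane proteins split in the same way. Ms4a7 had 10.99, not above background, on old p16-/-, 258 on old WT and 1474 on young WT. Ms4a6b had 203, 30.5, not above background, and 221. Ms4a7 was at least 5.51-fold lower in old p16-/- over old WT, and Ms4a6b was at least 5.67-fold higher. On chromosome 19, 5 protein-coding genes lie between the pair.

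The 5 members that were higher in old p16-/- over old WT were Mrc1, Ms4a6b, Inpp5d, Ptprc and Aif1. Each rests on 1 probe spotted once, with signals from 89.9 to 399 on old p16-/-. Among probes spotted 10 times, 69 of 1400 spots of dim probes (4.93%) were called above background on that array, at up to 870, and 2 spots of C1qc and Fcgr2b left out above were of this kind. For probes above background, the median SD over replicate spots on old p16-/- was 0.140 at signals of 50 to 200 and 0.0734 at 200 to 1000. The part of such spots in these 5 values was not tested. With normexp background correction, Ptprc at 0.63 and Aif1 at 0.75 came inside the 2-fold limit. Of the 32 members counted, 3 stayed higher and 14 lower, against 4.02% and 4.59% of 14751 genes. Where the brighter array had a signal of at least 1000, 2 of 5 members were lower and 0 higher in old p16-/- over old WT, against 4.23% and 2.69% of 8837 genes.

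Further macrophage genes outside the set moved in the same direction between the WT arrays, though fewer of them did. Of 53 counted genes from lists of further macrophage genes, haematopoietic signalling and the phagocyte oxidase, 26 were lower and 0 were higher in old WT over young WT, with a median of -0.89, beside 3.33% and 3.08% of all genes. In old p16-/- over old WT, 9 of 46 were lower and 4 were higher, with a median of -0.47, beside 6.72% and 6.09% of all genes. Folr2, a folate receptor of tissue-resident macrophages, had 24.8, not above background, on old p16-/-, 126 on old WT and 649 on young WT. The scavenger receptor Stab1 had 32.6, not above background, 125 and 610. Irf8, a transcription factor that acts with PU.1, had 39.2 and 34.7 on old p16-/- and old WT, neither above background, and 384 on young WT. These 3 genes were all highest on young WT. Lcp1, the leukocyte actin bundler, had 104, 174 and 955, and Vav1, an exchange factor of immune receptor signalling, had 9.97, not above background, 75.5 and 442. In the oxidase, Ncf4 had 10.2, not above background, 109 and 612, while Cyba, which many cell types express, had 12888, 24243 and 25939. Between the old arrays, C5ar1, the complement C5a receptor, had 447 on old p16-/- and 75.2 on old WT.

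Lists of genes that many cell types express lay nearer 0. Of 20 lysosomal genes, 0 were lower or higher in old WT over young WT, with a median of 0.12. The shares of all genes were 3.33% and 3.08%. Ctsh alone, at -1.93, was lower in old p16-/- over old WT, beside 6.72% of all genes. Ctsd had 104810.0 on old p16-/-, 116766 on old WT and 111018 on young WT. The growth factors of macrophages differed otherwise: Csf1 had 29669, 70963 and 55803, which is -1.26 in old p16-/- over old WT and 0.41 in old WT over young WT. Il34 had 1936, 2002 and 2424. Csf1 was thus lowest on old p16-/- and highest on old WT, and any link to the members' levels was not tested. Of 10 counted macrophage cytokines and chemokines, 5 were lower in old WT over young WT, among them Pf4 at -2.44 and Ccl4 at -1.61. The 1 higher gene was Cxcl2, at 1.96. These counts stand beside 3.33% of all genes lower and 3.08% higher. Cyba, Ctsd and Il34 were named after their values were seen.

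**Figure D5:**
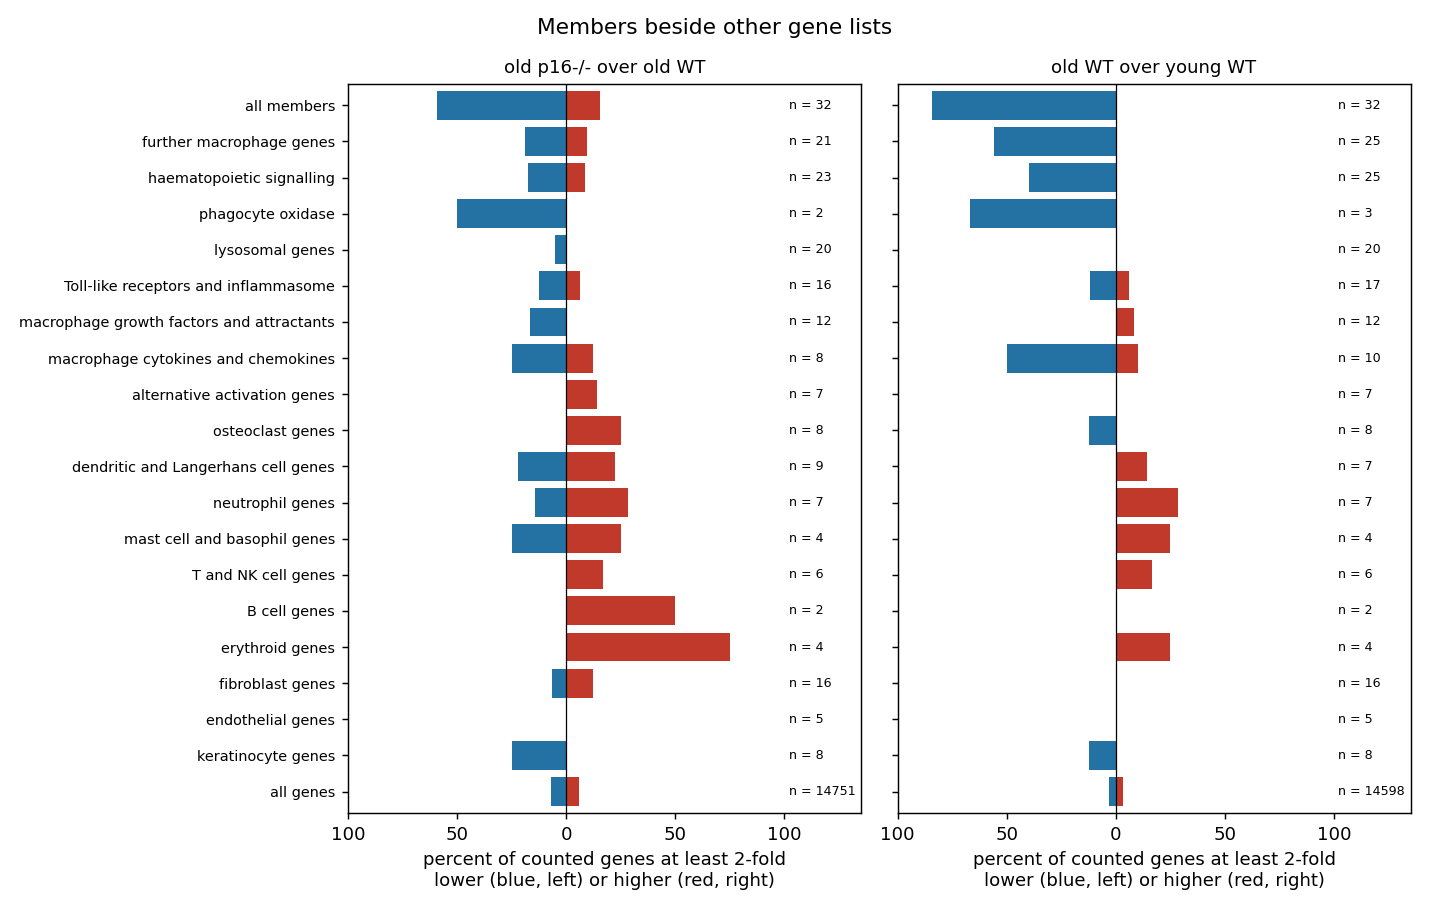
Percent of the counted genes of each list that were at least 2-fold lower (blue bars, left) or higher (red bars, right) in old p16-/- over old WT and in old WT over young WT, with the number counted as n. The members had 19 of 32 lower and 5 higher between the old arrays and 27 of 32 lower in old WT over young WT. In the WT comparison 0 of 20 lysosomal and 0 of 16 fibroblast genes were lower, beside 3.33% of all genes. Between the old arrays 6.72% of all genes were lower and 6.09% higher.

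Marker lists of other cell types were read beside the members. In old WT over young WT, none of the 16 fibroblast, 5 endothelial, 6 T and NK cell, 7 neutrophil or 2 B cell genes was lower. Beside them, 3.33% of all genes were lower and 3.08% higher, so 0 lower in a list this short is near that share. Of the remaining lists, 2 of 17 genes of Toll-like receptors and the inflammasome, 1 of 8 osteoclast genes, 1 of 8 keratinocyte genes and none of the 7 alternative activation, 7 dendritic and Langerhans, 4 erythroid or 4 mast cell genes were lower. Higher in that comparison were 2 neutrophil genes, S100a9 at 4.63-fold and Mmp8 at no less than 6.95-fold. Also higher was 1 gene each of the T and NK cell (Gzmb), mast cell (Hdc), erythroid (Alas2) and dendritic (H2-Ab1) lists. In the list of Toll-like receptors and the inflammasome, 1 gene was higher, Casp1 at 4.31-fold. Old p16-/- differed in another way, with 3 of 4 erythroid genes higher than on old WT and Hba-a1, an alpha globin, at 2241 against 48.8. Between these 2 arrays 6.09% of all genes were higher and 6.72% lower. On old p16-/- alone, Cd207, the marker of Langerhans cells, had 278, Cd209a of dendritic cells had 215 and the monocyte receptor Ccr2 had 184. On that array 4.93% of spots of dim probes were called above background, at up to 870. For Mmp8, Hdc and Cxcl2, above background on old WT alone, the share on that array was 6.28%, at up to 794. The part of such spots in these values was not tested. The dendritic and Langerhans list was split, since the MHC class II genes H2-Ab1 and H2-Eb1 were 5.52-fold and 2.03-fold lower on old p16-/- than on old WT. In old p16-/- over old WT, 6843 of 14751 genes lay below 0. Of 7 neutrophil genes 5 did, with a median of -0.27. Among them Mmp8 had 10.1, not above background, on old p16-/- and 369.5 on old WT, whereas S100a8 had 1739 on old p16-/-, 324 on old WT and 410.3 on young WT. F13a1, which monocytes and megakaryocytes express, had 2864, 71.5 and 52.0. These values stood beside higher Mrc1, Ptprc and Aif1 on the same array, and their part in the members' ratios was not tested.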

How the data were processed

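RNA of day 8 cultures was hybridised to 1 array per group, old p16-/-, old WT and young WT, all on 1 slide and scanned once together. The deposited scanner files hold linear spot intensity from Agilent Feature Extraction 11.5.1.1, per the file headers, and the processed signal was used, which is background-subtracted but not scaled across arrays. Intensity in the deposited value table is the same, unscaled and uncentred (39030 of 39030 probes spotted once equal within a relative tolerance of 0.0001), with column medians of 132, 135 and 137 for old p16-/-, old WT and young WT. The flags for background and outliers are other values of the deposited scanner files. Members, lists and the genes named outside the set were chosen with earlier results of these data known.

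Control spots (1377) were left out. Spots marked as outliers (267, 246 and 246) were left out where the probe had an unmarked spot. A probe whose spots were all marked kept them, so a probe spotted once kept a marked spot. Per probe, the mean log2 signal of its spots was taken, less the 75th percentile of the array. Accessions named 27502 of 39429 probes through the GRCm38.p6 RefSeq table, used for names, chromosomes and neighbours only, since the array was designed on another build. A gene took its brightest probe and counted as above background if any probe was. For a bound, the dim level was replaced by the lowest level above background on its array unless it was itself larger, and a bound under 1-fold was entered as 0. Members are lower or higher at 2-fold. With 1 array per group no test was run, and precision is limited by the number of arrays. Named genes are all 37 members, Cdkn2a, defining genes such as Col1a1 and Hba-a1, and up to 4 genes of each further list with the largest ratios at 2-fold in each comparison. Scripts were tested on simulated data. Normexp and quantile alternatives used limma 3.58.1 in R 4.3.3, and the rest used Python 3.11.15 with numpy 2.4.6 and pandas 2.3.3.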

Additional observations from a re-analysis of the deposited data

How the results depend on the processing

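Under the 9 alternatives, called members kept their direction and the 2-fold size in 167 of 177 values of old p16-/- over old WT, 186 of 188 of old p16-/- over young WT and 222 of 227 of old WT over young WT, and 1 value reversed. That was Csf1r in old p16-/- over young WT, at 0.13 with the median over its probes. In old p16-/- over old WT the members' median was -1.24 with quantile normalization and -0.83 with normexp (14 of 32 lower, 3 higher). It was -1.13 with the value table and -0.49 for members above background on both arrays (4 of 13 lower, 3 higher). It was -1.78 with no background filter, -0.74 at a signal of at least 1000 (2 of 5 lower, 0 higher) and -1.13 with the median over probes. Of all genes, 4.59% were lower and 4.02% higher with normexp. The shares were 5.04% and 4.2% above background on both arrays, and 4.23% and 2.69% at 1000. In old p16-/- over young WT the same 7 settings gave -3.40, -2.34, -2.52, -1.28 (7 of 14 lower), -3.68, -4.91 (13 of 15 lower) and -2.52. Of all genes, 5.05% were lower above background on both arrays and 4.21% at 1000. In old WT over young WT, normexp gave -1.66 (23 of 32 lower, against 1.98% of all genes) and no background filter -1.97. A signal of at least 1000 gave -2.10 (13 of 15 lower, against 0.585%). With the looser call of a positive and significant signal, 26 of 37 members were above background on old p16-/-, against 76.7% of all genes. The stricter filters count fewer members by construction; elsewhere the cause was not tested. The planned normexp on the mean spot signal could not be run, and the median spot signal, chosen after seeing the files, took its place. No paired analysis was possible because each group has 1 array and no replicate number, and no replicate could be left out. Signal over background limits most the values of old p16-/-, where 19 of 32 ratios to old WT are bounds.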
